A study of Mus musculus with 56 samples.

Results

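The 28 tumors described here are the 14 highest and the 14 lowest of 56 p53null mouse mammary tumors on a score of neutrophil genes. The score is the mean log2 intensity of S100a8, S100a9, Csf3r and Cxcr2, each read from its probe set of highest mean. Tumors were ranked within host genotype, and the top 8 and bottom 8 of 32 tumors from wild-type (WT) hosts and the top 6 and bottom 6 of 24 tumors from TGFb1 heterozygote (Het) hosts were taken as high and low tumors. The other 28 tumors lie in neither group.

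Every tumor grew from a fragment of p53null mammary epithelium that was not itself irradiated. Hosts were female BALB/c mice, cleared of their endogenous mammary epithelium when 3 weeks old, that received a fragment in the inguinal fat pad 3 days after irradiation or sham irradiation. The high tumors comprised 6 from irradiated and 2 from sham WT hosts and 6 from irradiated Het hosts. The low tumors comprised 7 from irradiated and 1 from a sham WT host, and 3 from irradiated and 3 from sham Het hosts. The genotype names describe the host, and total RNA of a tumor holds RNA of the graft and of host cells that entered it. It was read on Affymetrix 3' arrays, and each array is a tumor of its own title number, by which it is called here (WT_sham replicate 46). Shared hosts or donors are not recorded in the labels, and p-values then measure the spread between these samples.

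Neutrophils are short-lived white blood cells released from bone marrow under the cytokine G-CSF, which acts on the receptor Csf3r. They follow chemokines with an ELR motif, the ligands of Cxcr2, into inflamed tissue, where their granules deliver proteases and antimicrobial proteins and their cytoplasm holds large amounts of the calcium-binding proteins S100a8 and S100a9. In mouse mammary tumors neutrophils are among the infiltrating myeloid cells, and keratinizing epithelium can also make S100a8 and S100a9.

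The scores set the groups and are given as a description. In WT hosts the score ran from 8.37 through a median of 8.89 to 10.06 in high tumors, and from 5.75 through 6.88 to 7.23 in low tumors. In Het hosts it ran from 8.78 through 9.80 to 10.87 in high tumors, and from 5.49 through 6.79 to 7.37 in low tumors. The scores ran on without a wide gap at the edges: the next WT tumor below the high group scored 8.18 and the next above the low group 7.27, and in Het hosts these neighbors scored 8.51 and 7.52.

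**Figure D1:**
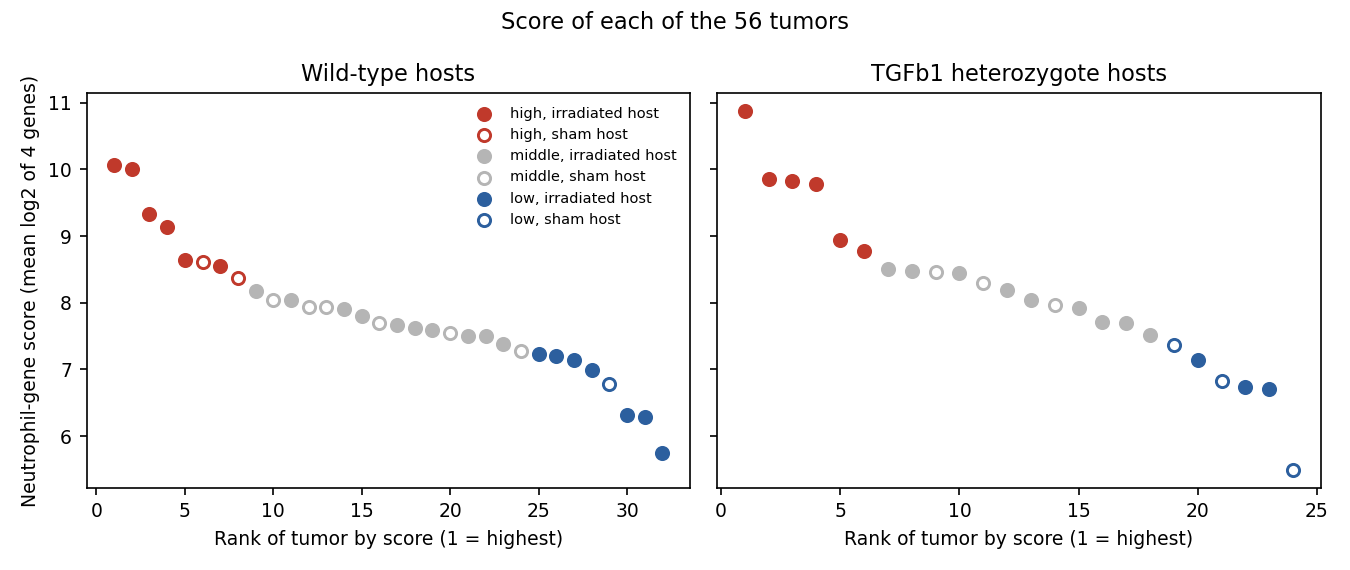
Score of each tumor (mean log2 intensity of 4 genes, vertical axis) by its rank within WT hosts (left) and Het hosts (right). Red marks high, gray neither and blue low tumors, with filled points for irradiated and open points for sham hosts. The steps at the group edges, 8.37 against 8.18 in WT hosts and 8.78 against 8.51 in Het hosts, are small beside the whole range.

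The tumors were chosen by the values of these 4 genes, which are given as a description. S100a8 had medians of 11.29 in high and 8.24 in low WT-host tumors and of 12.45 in high and 8.69 in low Het-host tumors. Csf3r, which unlike the S100 genes is largely confined to myeloid cells, had medians of 8.68 in high and 7.53 in low WT-host tumors and of 9.28 in high and 6.67 in low Het-host tumors. Cxcr2 was dim: only 2 of 56 tumors had it above 5.83, the median of all values. A score of S100a8 and S100a9 alone picked the same 14 high and 14 low tumors, while a score of Csf3r and Cxcr2 alone shared 11 of 14 high and 9 of 14 low tumors with the groups used here. Membership of the groups was thus the same as by S100a8 and S100a9, which keratinizing epithelium can also make, and none of the 4 genes enters a test of high against low tumors.

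Among the 12505 other genes tested, 32 were higher and 1 was lower in high tumors than in low tumors (limma with host genotype as a block, Benjamini-Hochberg adjusted p under 0.05 over all genes). These are 0.256% and 0.008% of the genes tested. At an unadjusted p under 0.05 there were 800 higher and 538 lower. Of the 32, 14 were in the lists of neutrophil receptors, cytoplasmic genes and granule proteins, 2 were the chemokines Cxcl1 and Cxcl2, 1 was the cytokine Il1b, and 15 were in none of these lists, among them Upp1 and Gzme, which had the largest differences after Stfa2l1. The differences ran from 0.52 to 2.58 with a median of 1.14 on the log2 scale, while that of all genes was -0.01. In bulk tissue, more neutrophils, more RNA per neutrophil and RNA of other cells cannot be told apart.

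The largest difference was that of Stfa2l1, a stefin A family member related to inhibitors of cysteine proteases and abundant in mouse neutrophils. Its log2 intensity ran from 4.87 through a median of 5.61 to 7.55 in high and from 3.43 through 3.75 to 4.33 in low WT-host tumors. In Het-host tumors it ran from 5.62 through 6.61 to 9.21 in high and from 3.28 through 3.91 to 4.36 in low ones. Every high tumor lay above every low tumor in both host genotypes, and the difference was 2.58 ± 0.33 (SE; limma adjusted p = 0.000173). The stefin A genes are a family of close copies, and how far the probe set separates them was not tested.

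Among the surface receptors of neutrophils, 6 of the 26 measured genes of the list rose, none fell, and the list's median difference was 0.71. The 6 were Clec4e, Clec4d, Trem1, Trem3, Il1r2 and C5ar1. Clec4e and Clec4d are C-type lectin receptors that sense microbial glycolipids and lie beside each other on chromosome 6. Clec4e ran from 5.87 through 6.62 to 8.09 in high and from 4.29 through 5.14 to 5.49 in low WT-host tumors. In Het-host tumors Clec4e ran from 6.40 through 7.54 to 9.29 in high and from 4.36 through 5.10 to 5.95 in low ones. It was, with Stfa2l1, one of the 2 genes of 12505 (0.016%) whose high tumors all exceeded all low tumors in both hosts, with a difference of 1.99 ± 0.26 (limma adjusted p = 0.000173).

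Clec4d had medians of 7.74 in high and 6.09 in low WT-host tumors, and of 7.91 in high and 6.59 in low Het-host tumors. Its difference of 1.68 ± 0.28 (limma adjusted p = 0.0048) was nearly the same in both hosts, at 1.69 in WT and 1.67 in Het hosts, although 1 high WT-host tumor and 2 high Het-host tumors lay within the low tumors' range. Trem1 and Trem3, activating receptors that amplify inflammatory signals in myeloid cells, differed by 0.97 ± 0.17 (limma adjusted p = 0.00896) and 1.0 ± 0.15 (limma adjusted p = 0.00194). In Het hosts neither gene overlapped between high and low tumors. Of the 32 genes that rose, 15 were without overlap in Het hosts, where each group held 6 tumors. The share over all genes for Het hosts alone is not given here, so such separation is a description. C5ar1, the receptor for the complement fragment C5a, differed by 1.14 ± 0.23 (limma adjusted p = 0.0241). Without 1 high tumor, Het_irradiated replicate 4, that adjusted p was 0.0536.

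Il1r2, a decoy receptor that binds interleukin-1 without signaling, spread more widely. It ran from 6.70 through 7.55 to 9.40 in high and from 5.39 through 6.19 to 8.17 in low WT-host tumors, where 1 low tumor at 8.17 stood well above the other low tumors. In Het-host tumors it ran from 7.02 through 9.27 to 10.47 in high and from 4.81 through 6.56 to 7.46 in low ones, with 1 high tumor inside the low range. The difference was 2.04 ± 0.37 (limma adjusted p = 0.00896). The remaining 20 receptor genes did not pass the test, among them the integrin subunits Itgam and Itgb2 and the Fc receptors Fcgr3 and Fcgr4, which macrophages also carry. Itgam differed by 0.64 ± 0.32 and Fcgr4 by 0.04 ± 0.28. Cd177 of the same list differed by 0.55 ± 0.44 without passing. Those 4 genes and Cd177 were singled out after their values were seen.

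**Figure D2:**
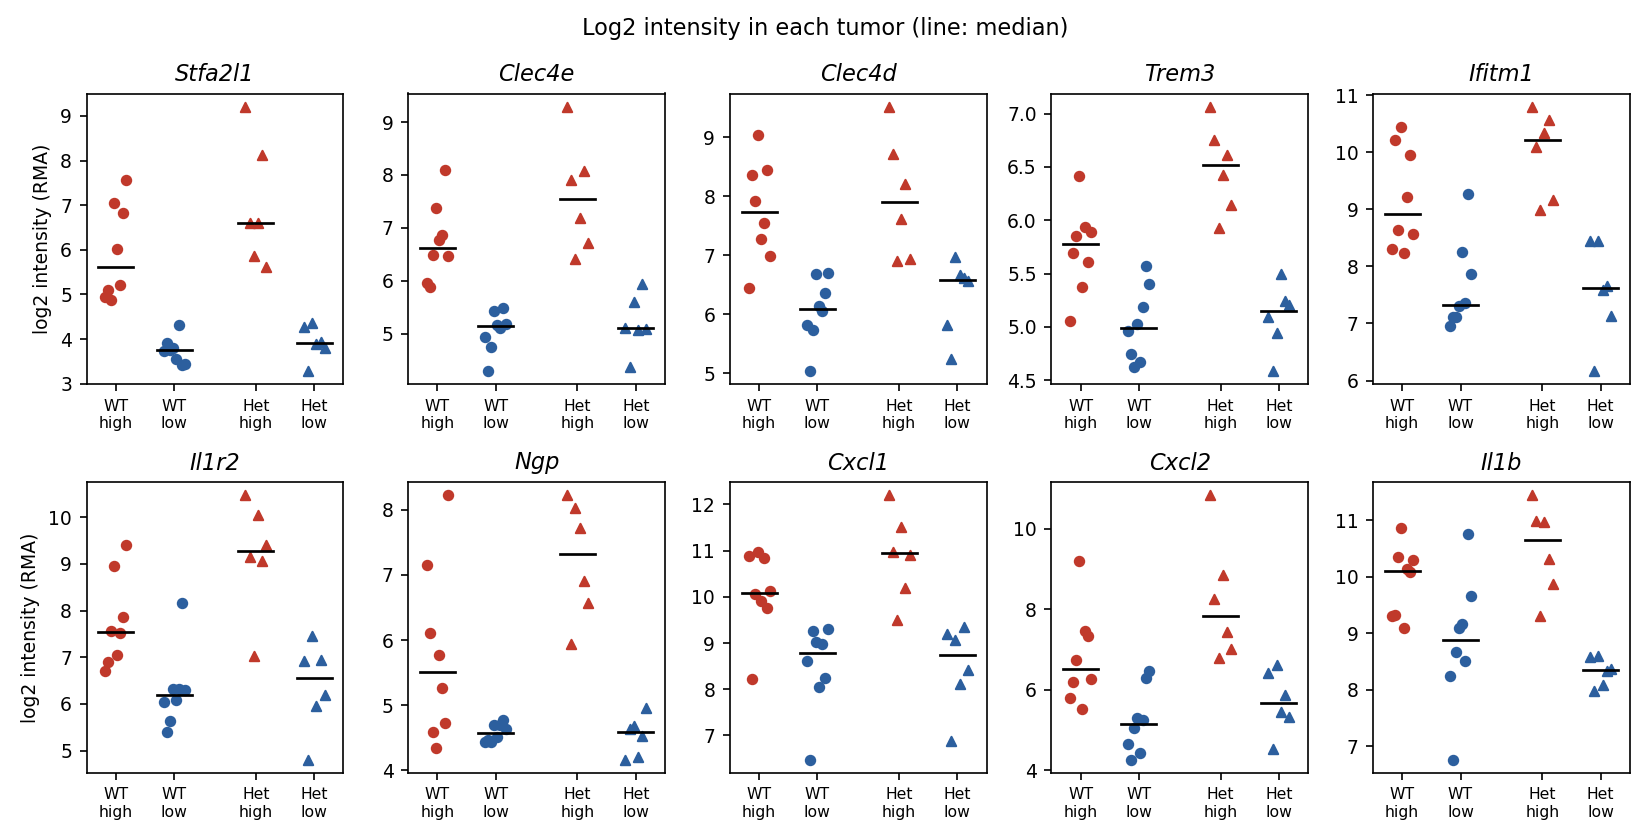
Log2 intensity of 10 genes in each of the 28 tumors (1 point a tumor; circles, WT hosts; triangles, Het hosts; red, high; blue, low; black line, median). Stfa2l1 and Clec4e separate high and low tumors in both hosts, while Il1r2 and Il1b each have a low WT-host tumor, at 8.17 and 10.75, among the high ones.

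Of the neutrophil cytoplasmic and other genes, 6 of 22 measured rose, none fell, and the median difference was 0.78. Besides Stfa2l1 these were Ifitm1 and Ifitm6, members of the interferon-inducible transmembrane family on chromosome 7, Slpi, an inhibitor of neutrophil elastase that epithelia also secrete, Hdc, which makes histamine, and Mxd1, a repressor that opposes Myc in maturing myeloid cells. Ifitm1 had medians of 8.93 in high and 7.33 in low WT-host tumors and of 10.21 in high and 7.62 in low Het-host tumors, a difference of 1.92 ± 0.31 (limma adjusted p = 0.00306). Its groups overlapped in WT hosts, where 1 low tumor reached 9.26, and not in Het hosts. Slpi had medians of 11.94 in high and 9.66 in low WT-host tumors and of 12.91 in high and 10.98 in low Het-host tumors, and differed by 1.91 ± 0.38 (limma adjusted p = 0.0199). High and low tumors overlapped for Slpi in both hosts. Ifitm6 differed by 1.49 ± 0.27 (limma adjusted p = 0.00896), Mxd1 by 0.94 ± 0.21 (limma adjusted p = 0.0416) and Hdc by 0.83 ± 0.18 (limma adjusted p = 0.0386).

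Of the 18 granule proteins with a probe set, 13 passed the filter on low values, 2 of these rose, none fell, and the median difference was 0.44. Ngp, the neutrophilic granule protein, ran from 4.34 through 5.51 to 8.22 in high and from 4.43 through 4.57 to 4.77 in low WT-host tumors. In Het hosts Ngp ran from 5.93 through 7.31 to 8.22 in high and from 4.17 through 4.58 to 4.95 in low tumors. The low tumors were flat in both hosts, 3 of 8 high WT-host tumors did not exceed all of them, and the difference was 1.84 ± 0.34 (limma adjusted p = 0.00896). Camp, the cathelicidin precursor of secondary granules, differed by 1.02 ± 0.21 (limma adjusted p = 0.025), and this call was lost without Het_irradiated replicate 4 or Het_irradiated replicate 56, with an adjusted p of at most 0.0557. Mmp9, the gelatinase of tertiary granules, differed by 1.34 ± 0.62 and did not pass (limma adjusted p = 0.444), with 1 low Het-host tumor at 11.25, above every high Het-host tumor.

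Genes of primary granules are transcribed early, in bone marrow. Of these, Mpo, Elane and Ctsg did not pass the filter, which asks for 6 of 56 arrays above the median of all values, and Prtn3 differed by 0.83 ± 0.64 (limma adjusted p = 0.668). Mmp8, a collagenase of neutrophil granules, was also below the filter and differed by 1.28 with a limma adjusted p of 0.00269 when every annotated gene was tested. Lcn2, Ltf, Lyz2 and Cybb, which epithelium or macrophages also express, did not pass the test. Nor did Padi4, at 1.04 ± 0.56, and Pglyrp1, at 0.63 ± 0.81, of the same list. Whether expression in other cells bears on this was not tested. All these genes were singled out after their values were seen. The filter itself bears on these lists: 6 of the 32 genes that rose (Stfa2l1, Trem3, Ifitm6, Ngp, Camp and Hdc) had no low tumor above the median of all values and owe their place in the test to the brighter tumors, so the shares of measured members that rose are descriptions. All 14 low tumors were above that median for 17 of the 32.

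The ELR chemokines, the ligands that draw neutrophils through Cxcr2, differed most as a group, with a median difference of 1.96 over 6 measured genes. Cxcl1 and Cxcl2 rose, and Cxcl3, Cxcl5, Ppbp and Cxcl15 did not pass the test. All 6 genes lie close together on chromosome 5, with Cxcl15 between Cxcl3 and Cxcl1. The 150 bases before the start of Cxcl1, Cxcl2 and Cxcl3 are shown because 2 of these genes are the chemokines that rose and the third is a gene of the same cluster that did not pass. They are from RefSeq (GRCm38.p6, plus strand), at chr5:90891095-90891244 for Cxcl1, chr5:90903749-90903898 for Cxcl2 and chr5:90785951-90786100 for Cxcl3. Capitals mark GGAATTTCC, a core of the binding sequence of NF-kB, the inflammatory transcription factor.
Cxcl1: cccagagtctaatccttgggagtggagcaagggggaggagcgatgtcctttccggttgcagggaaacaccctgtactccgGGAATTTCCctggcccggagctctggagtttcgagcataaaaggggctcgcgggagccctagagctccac
Cxcl2: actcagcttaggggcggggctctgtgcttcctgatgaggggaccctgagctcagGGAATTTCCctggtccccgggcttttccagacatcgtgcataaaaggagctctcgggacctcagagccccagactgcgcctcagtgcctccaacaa
Cxcl3: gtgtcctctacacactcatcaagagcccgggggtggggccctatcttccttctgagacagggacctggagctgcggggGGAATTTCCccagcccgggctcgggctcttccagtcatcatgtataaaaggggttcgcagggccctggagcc

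The motif begins 70 bases before the start of Cxcl1, 96 before that of Cxcl2 and 72 before that of Cxcl3. Its letters were picked after these promoters had been read, and it was searched on both strands. It was found in the same window of 62 of 32851 promoters (0.189%). Counted by gene, it was found for 2 of the 28 listed genes that rose, Cxcl1 and Cxcl2. For the ELR chemokines it was found in 3 of 5 genes listed. Counts of genes and the share of single promoters are in unlike units. A match is a description of the sequence, and binding was not measured. Of 18 measured NF-kB targets and regulators, 1 rose, Socs3, and the list's median difference was 0.17. Tnfaip2 differed by 1.15 ± 0.46 and Ier3 by 0.69 ± 0.35 without passing. Birc3 differed by -0.58 ± 0.31, Tnfaip3 by -0.44 ± 0.32 and Icam1 by -0.04 ± 0.48. These 3, singled out after their values were seen, did not pass and were the only measured members of the list below 0.

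Cxcl1 ran from 8.22 through 10.09 to 10.97 in high and from 6.48 through 8.79 to 9.30 in low WT-host tumors. In Het-host tumors Cxcl1 ran from 9.50 through 10.94 to 12.20 in high and from 6.88 through 8.74 to 9.34 in low ones. In Het hosts all high tumors exceeded all low ones, and in WT hosts 7 of 8 did so, the exception being WT_sham replicate 46 at 8.22. The difference was 1.94 ± 0.34 (limma adjusted p = 0.00825).

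Cxcl2 was dimmer. It ran from 5.53 through 6.51 to 9.20 in high and from 4.26 through 5.15 to 6.45 in low WT-host tumors, and from 6.78 through 7.84 to 10.83 in high and from 4.54 through 5.67 to 6.60 in low Het-host tumors. Its groups overlapped in WT hosts only, and the difference was 1.98 ± 0.40 (limma adjusted p = 0.0203). This call was lost under 7 of 18 alternatives, among them irradiated hosts only, with a limma adjusted p of up to 0.131 and a difference of 1.10 to 2.12. Cxcl5 differed by 2.46 ± 0.64 and Cxcl3 by 2.18 ± 0.77 without passing (limma adjusted p = 0.108 and 0.298). These were uneven: Cxcl3 had a median of 3.86 but a highest value of 11.75 among high WT-host tumors, and a median of 6.04 with a highest value of 11.48 among high Het-host tumors. Ppbp, a chemokine stored in platelets, differed by 1.47 ± 0.44 (limma adjusted p = 0.194), and Cxcl15, known mainly from lung epithelium, by -0.63 ± 0.54 (limma adjusted p = 0.701). The value of Cxcl15 was -0.25 without Het_sham replicate 38. No gene of the 22 measured other chemokines passed, and their median difference was 0.05. Ccl6, which had the lowest p of these, differed by 0.93 ± 0.27 (limma adjusted p = 0.175).

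Of 11 measured cytokines that induce granulopoiesis or neutrophil recruitment, Il1b rose and none fell, with a median difference of 0.84 for the list. Il1b, the interleukin-1 beta of activated myeloid cells, ran from 9.31 through 10.64 to 11.44 in high and from 7.98 through 8.35 to 8.59 in low Het-host tumors. In WT hosts it ran from 9.09 through 10.11 to 10.86 in high and from 6.77 through 8.89 to 10.75 in low tumors. The hosts thus looked different, with no overlap in Het and wide overlap in WT hosts, but the difference between hosts, 1.09 on the log2 scale, did not pass the test (limma adjusted p = 1). Over both hosts Il1b differed by 1.54 ± 0.31 (limma adjusted p = 0.0199), a call lost under 5 of 18 alternatives. Csf3, which encodes G-CSF, the ligand of the score gene Csf3r, had medians of 8.05 in high and 6.39 in low WT-host tumors and of 9.42 in high and 6.48 in low Het-host tumors. Its difference of 1.85 ± 0.46 did not pass (limma adjusted p = 0.0985). It passed without WT_sham replicate 46, WT_irradiated replicate 11 or WT_irradiated replicate 43, with a limma adjusted p of 0.0331, 0.0357 and 0.0494.

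Among matrix proteases and their inhibitors the median difference was 1.24 over 14 measured genes, of which 1 rose. That gene was Plaur, the urokinase receptor of neutrophils, macrophages and tumor cells, which differed by 1.44 ± 0.31 (limma adjusted p = 0.0312). The stromelysin Mmp10 differed by 2.401 ± 0.56 (limma adjusted p = 0.0663), and the aggrecanase Adamts4 by 1.24 ± 0.31 (limma adjusted p = 0.0934, and 0.037 without WT_irradiated replicate 22). Mmp10 had medians of 8.10 in high and 5.93 in low WT-host tumors, and of 9.32 in high and 5.52 in low Het-host tumors. It overlapped in both hosts, and it passed the test when any 1 of 4 tumors was left out, with a difference of 2.53 to 2.65: WT_sham replicate 17, WT_irradiated replicate 11, WT_irradiated replicate 21 or Het_irradiated replicate 1.

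The other genes that rose are in none of the neutrophil lists. Socs3 and, below, Zdhhc3 were named by lowest p. The others were named after their values were seen, to complete the 32. Socs3, a feedback inhibitor of signaling by G-CSF and interleukin-6 receptors, differed by 1.13 ± 0.20 (limma adjusted p = 0.00896), and its high and low tumors did not overlap in Het hosts. Upp1, a uridine phosphorylase, differed by 2.26 ± 0.45 (limma adjusted p = 0.0199), and Gzme, a granzyme, by 2.06 ± 0.43 (limma adjusted p = 0.025). Mcemp1, a membrane protein of mast cells and other myeloid cells, differed by 1.05, and Pilrb1, an activating immunoglobulin-like receptor, by 1.06. Pygl, a glycogen phosphorylase, differed by 1.32 and Ppp1r3b, which directs a phosphatase to glycogen, by 0.89. The rest were Zfand2a, a stress-inducible zinc finger protein, at 0.90, the membrane protein Dcbld2 at 0.85, the small Maf factor Maff at 0.86, the ubiquitin ligase component Rnf11 at 0.69, the RNA-binding protein Rbms1 at 0.64, the palmitoyltransferase Zdhhc18 at 0.53 and the phosphatase Ptpn12 at 0.52. Zdhhc3, another palmitoyltransferase, was the 1 gene that fell, by 0.47 on the log2 scale (limma adjusted p = 0.0397).

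**Figure D3:**
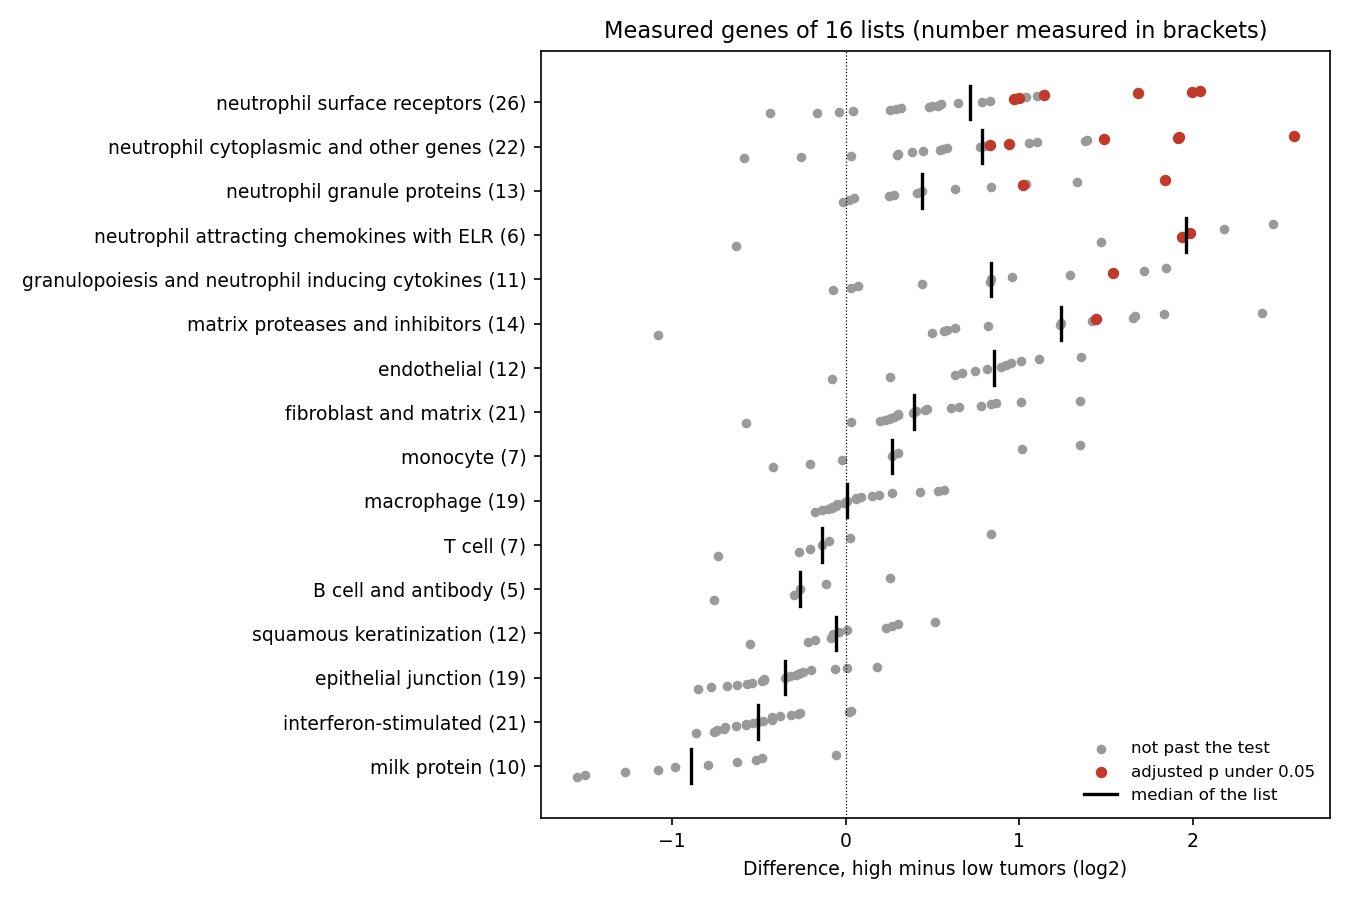
Difference between high and low tumors (log2, horizontal axis) for every measured gene of 16 gene lists, 1 point a gene, with red for genes past the test and a black line at each list's median. The ELR chemokines have the highest median, 1.96, the macrophage list lies near 0 at 0.01, and the milk protein list is lowest at -0.89 with no gene past the test.

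The number of calls varied with the tumors and terms entered. With irradiation added to the host block 13 genes were called, in irradiated hosts alone 11, without the 4 tumors with an 18S control below 11 there were 9, with the upper 16 WT and 12 Het tumors against the others 16, and with Csf3r and Cxcr2 alone as the score 15. Leaving out 1 tumor gave from 18 genes, without Het_irradiated replicate 4, to 52, without WT_sham replicate 17. Stfa2l1, Clec4e, Clec4d, Trem3, Ifitm1 and Cxcl1 were called in each of these settings. Of the 33 genes, 18 were called whichever tumor was left out, and Hdc, Mxd1, Maff, Pygl, Plaur, Pilrb1, Ppp1r3b, Rbms1 and Zdhhc3 lost the call in 12 to 22 of 28 such fits.

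All 32 genes that rose had a positive difference within WT and within Het hosts, and for 25 of them the estimate was larger in Het hosts. The 32 were chosen by their difference over these same tumors. Agreement in sign between hosts is thus largely set by that choice and is a description. High and low tumors also lay further apart on the score in Het hosts. Mean scores were 9.67 in high and 6.71 in low Het-host tumors, and 9.09 and 6.71 in WT-host tumors. The share of all genes with a larger estimate in Het hosts is not given here, so the 25 of 32 is a description too. Within Het hosts alone 9 genes passed, 0.072% of the genes tested: Clec4e, Ifitm1, Ifitm6, Il1r2, Mcemp1, Ngp, Stfa2l1, Trem1 and Trem3. Of these, Ifitm6, Ngp, Stfa2l1 and Trem3 owe their place in the test to the brighter tumors. With a stricter filter of 28 arrays above the median of all values, 2 genes passed. Het-host tumors came from irradiated hosts in 6 of 6 high and 3 of 6 low tumors. Within WT hosts no gene passed in limma (895 at an unadjusted p under 0.05). The difference between the hosts was called for no gene in limma (197 at an unadjusted p under 0.05), so a larger difference in Het hosts was not shown. A fit to the 12 Het-host arrays by themselves, which shares no estimate of spread with WT hosts, called 0 genes. In the shared fit the Het count was 4 without Het_irradiated replicate 56 and 14 without WT_irradiated replicate 57, and the WT count was 2 without Het_irradiated replicate 56.

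**Figure D4:**
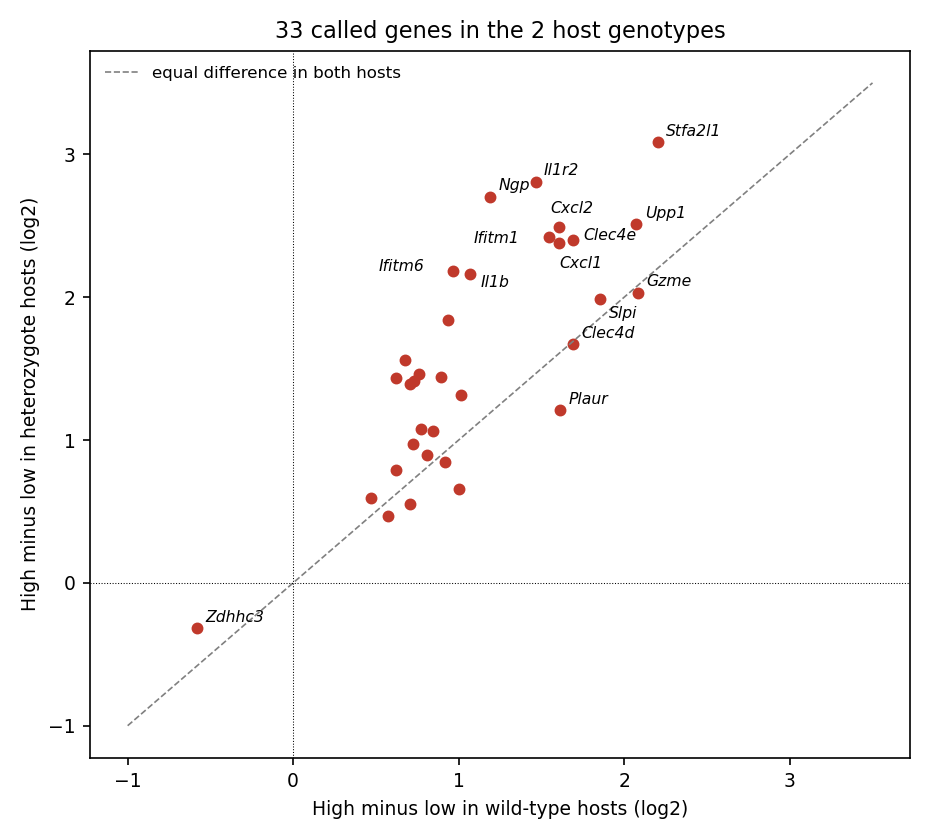
Difference between high and low tumors within Het hosts (log2, vertical axis) against the same within WT hosts (horizontal axis) for the 33 genes called; the dashed line marks equal differences. Of the 32 genes that rose, 25 lie above the line, Ngp and Il1r2 far above it at 2.70 and 2.81 in Het against 1.19 and 1.47 in WT hosts. Mean scores of high and low tumors also lay further apart in Het hosts.

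The 28 tumors of neither group took no part in the comparison, and the slope of each gene on the score across them uses samples apart from it. No gene passed in limma after adjustment (528 at an unadjusted p under 0.05), over a score range of 7.27 to 8.18 in WT and 7.52 to 8.51 in Het hosts. Of the 32 genes that rose, 22 had a positive slope, beside 52.1% of all genes, and 8 had a positive slope with an unadjusted p under 0.05, beside 2.26% of all genes. Leaving out 1 of these tumors at a time gave from 21 to 26 positive slopes. The 8 were Stfa2l1, Clec4e, Il1r2, Ngp, Cxcl1, Il1b, Hdc and Zdhhc18. Of these, Stfa2l1, Ngp and Hdc owe their place in the test to the brighter tumors. In the WT-host tumors of neither group, Stfa2l1 reached at most 4.94 and Ngp 5.13, below the median of all values, 5.83. Among Het-host tumors of neither group, Ngp had a median of 4.50 and a highest value of 6.74. Slopes of such dim genes are descriptions.

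Per unit of score, Il1r2 gained 1.24 ± 0.39, Clec4e 1.04 ± 0.33, Stfa2l1 0.94 ± 0.22 and Hdc 0.65 ± 0.20 on the log2 scale (SE, 28 tumors; no limma adjusted p below 0.05). These 4 genes had the lowest unadjusted p of the 32, from 0.000186 to 0.00401. Cxcl2 had a slope of 0.19 ± 0.49, C5ar1 of -0.07 ± 0.45 and Upp1 of -0.32 ± 0.79, each less than its error.

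**Figure D5:**
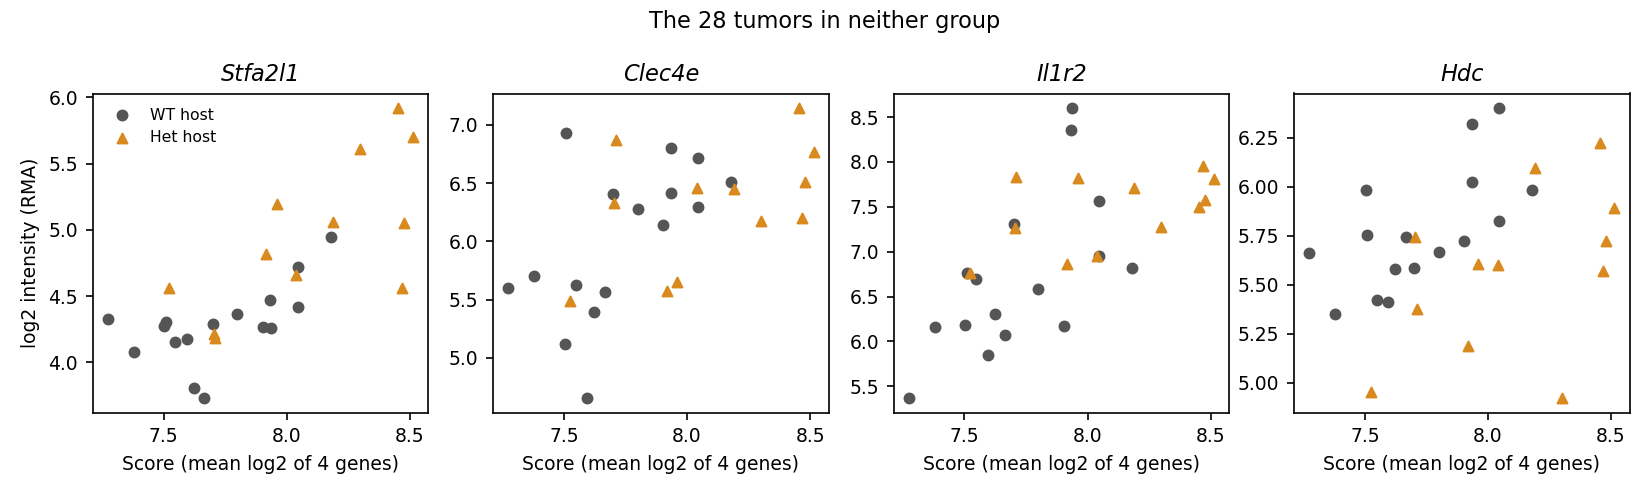
Log2 intensity of 4 genes (vertical axes) against the score (horizontal axes) in the 28 tumors of neither group (gray circles, 16 WT hosts; orange triangles, 12 Het hosts). The points climb with the score in all 4 plots, with slopes of 0.94 for Stfa2l1, 1.04 for Clec4e, 1.24 for Il1r2 and 0.65 for Hdc, and scatter widely about any line. Stfa2l1 stays below 5.83, the median of all values, in these WT-host tumors.

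Markers of other cells were read beside these results. None of the 19 measured macrophage genes passed, and their median difference was 0.01, with list means of 9.13 to 10.57 in high and 8.95 to 10.40 in low WT-host tumors. None of 7 measured monocyte genes passed, and their median was 0.26. The monocyte list means were 8.39 to 9.10 in high and 7.72 to 8.81 in low WT-host tumors, and 8.47 to 8.93 in high and 7.73 to 8.94 in low Het-host tumors, and F10 of that list differed by 1.01 ± 0.26 (limma adjusted p = 0.107). Monocytes carry several of the receptors listed here for neutrophils, and their part in the result was not tested. Of 12 measured genes of squamous keratinization, none passed and the median was -0.06. Other genes of that list, among them Krt1, Krt13, Ivl, Flg and Sprr1b, did not pass the filter. List means of the 12 overlapped throughout. They were 5.39 to 8.16 in high and 5.19 to 7.82 in low WT-host tumors, with averages of 6.706 and 6.881. In Het-host tumors they were 6.36 to 7.61 in high and 5.90 to 8.35 in low ones, with averages of 7.095 and 6.842. The direction thus differed between hosts, which was not tested. The T cell, B cell and dendritic cell lists also had no gene past the test.

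Endothelial genes ran with the neutrophil genes without passing. Their median difference was 0.85 over 12 measured genes, 11 of them positive, with list means of 7.44 to 11.67 in high and 6.83 to 8.42 in low WT-host tumors and of 7.16 to 10.05 in high and 6.30 to 8.92 in low Het-host tumors. In tumors of irradiated hosts alone the median was 0.40. The median difference of all genes tested was -0.01, and counts of positive list members are descriptions. Plvap, of fenestrated vessels, differed by 0.81 ± 0.27 and Cdh5, the endothelial cadherin, by 1.11 ± 0.41. With the endothelial mean as a covariate 14 genes were called, 13 of them among the 33. Fibroblast and matrix genes had a median of 0.39, 20 of 21 positive, and the mesenchymal transition list a median of 0.68, with no gene past the test. Fn1, a fibronectin gene of fibroblasts and of some monocytes, differed by 1.35 ± 0.33 (limma adjusted p = 0.0806), and Snai1, a transcription factor of mesenchymal transition, by 1.26 ± 0.34 (limma adjusted p = 0.122). Fn1 passed without WT_irradiated replicate 59 or Het_irradiated replicate 7, and Snai1 without Het_irradiated replicate 7. With the fibroblast and matrix mean as a covariate 21 genes were called, 19 of them among the 33. Beyond these covariates, the part of vessels and stroma in the result was not tested.

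Markers of blood cells were uneven. Alas2, which makes heme in red cell precursors and was the 1 measured gene of its list, reached 12.68 in WT_sham replicate 46, against 6.85 in the next high WT-host tumor. Its difference was 1.05 ± 0.52 (limma adjusted p = 0.481), and 0.59 without that tumor. Mcpt8, a basophil protease, had medians of 7.26 in high and 4.79 in low Het-host tumors and of 5.25 in high and 4.83 in low WT-host tumors, and differed by 1.56 ± 0.40 (limma adjusted p = 0.108). Siglecf, Prg2 and Epx of eosinophils did not pass the filter.

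Milk protein, epithelial junction and interferon lists had medians below 0 without a gene past the test. Of 10 measured milk protein genes all 10 were lower in high tumors, with a median of -0.89, and of 21 interferon-stimulated genes 19 were lower, with a median of -0.51. Of 19 epithelial junction genes 17 were lower, with a median of -0.35 over both hosts, -0.70 within WT and 0.18 within Het hosts. Leaving out 1 tumor moved the junction median between -0.71 and -0.07 and the milk median between -1.25 and -0.57. With the upper 16 WT and 12 Het tumors against the others, the medians were -0.27 for milk, -0.11 for interferon and -0.26 for junction genes. In the 28 tumors of neither group, every measured milk gene but Lalba (-0.13) had a positive slope on the score, none past the test. The simple and luminal epithelium list had a median of -0.05, with 5 of 12 genes higher and none past the test. The median difference of all genes tested was -0.01. Members of these lists move together across tumors, so such counts are descriptions. Tgfb1, the gene of the host's heterozygous allele, differed by 0.75 ± 0.26 between high and low tumors (limma adjusted p = 0.286).

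Host irradiation was set against the score last. Of the high tumors 12 of 14 (85.7%) came from irradiated hosts, against 10 of 14 (71.4%) of the low tumors (Fisher's exact test, two-sided p = 0.648). In Het hosts these were 6 of 6 against 3 of 6 (exact p = 0.182), and in WT hosts 6 of 8 against 7 of 8 (exact p = 1). Over all 24 Het-host tumors the score averaged 8.40 ± 1.14 in irradiated hosts (SD, n = 18) and 7.40 ± 1.12 in sham hosts (SD, n = 6), a difference of 0.99 (two-sided exact permutation p = 0.0764, 0.153 after adjustment for 2 tests). In WT hosts it averaged 7.82 ± 1.10 in irradiated hosts (n = 23) and 7.80 ± 0.55 in sham hosts (n = 9), a difference of 0.02 (exact permutation p = 0.961). With Csf3r and Cxcr2 alone as the score, the shares differed by 42.9 percentage points (exact p = 0.0329) and the Het-host scores by 0.69 (exact permutation p = 0.0424). With the 4-gene score, the Het-host p was under 0.05 when Het_sham replicate 19, Het_irradiated replicate 7 or Het_irradiated replicate 42 was left out. Without Het_sham replicate 52, which had the lowest score, the difference was 0.61.

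Measures of RNA quality were set beside the groups. The 18S ribosomal RNA control differed by 0.21 between high and low tumors (permutation p = 0.602, within host), with 2 tumors below 11 in each group. The difference between 3' and 5' probe sets of actin and Gapdh, which grows as RNA degrades, differed by 0.05 (permutation p = 0.443). The high tumor WT_irradiated replicate 57, stood at 0.91 on that measure, against 0.30 in the next high WT-host tumor. Array medians were 5.92 to 6.00 in WT-host and 5.57 to 5.71 in Het-host tumors, so the arrays fall in 2 sets by host, and levels are compared here within host only.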

How the data were processed

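Deposited values are log2 intensities of probe sets that the authors computed by RMA, per the submitters' processing notes (version not given), from total RNA labelled with an Affymetrix 3' kit, per the labels' protocols. Array medians fall in 2 sets by host genotype, so host was a block. Of 45101 probe sets, 34958 had 1 gene symbol, 932 several and 9211 none in the platform annotation. Each gene was read from its probe set of highest mean, and 12505 genes with at least 6 of 56 arrays above the median of all values were tested, without the 4 score genes.

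Differences were tested with limma 3.58.1 in R 4.3.3 (lmFit, eBayes), with Benjamini-Hochberg adjustment over all genes, after the code was tested on simulated data. Single values were tested by Fisher's exact test or by permutation over tumors, and figures drawn with matplotlib 3.10.9. The number of arrays limits the precision. Genes were named by lowest p in the fit and within 38 gene lists, with all ELR chemokines, and others are said to be chosen later. The members, lists and tests were chosen with earlier results of these data known. Alternatives were filters, normalization, covariates, other scores and groups, and each array left out. The level of the p53 gene is not reported here.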

Additional observations from a re-analysis of the deposited data

Results flagged for a closer look

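Of 214 sets of 6, 8 or 9 tumors checked for a value far from the others, 21 held one, in 9 tumors, and chance gives about 1 in 20. Many of these measures move together in a tumor, so they are not separate observations. Among high WT-host tumors, WT_sham replicate 46 stood apart 4 times: Cxcl1 was low at 8.22 (nearest 9.77), while the platelet chemokine Ppbp was high at 8.58 (nearest 5.97), Alas2 of red cell precursors at 12.68 (nearest 6.85) and the endothelial Cdh5 at 12.33 (nearest 9.60). WT_irradiated replicate 57 had a 3' minus 5' difference of 0.91 (nearest 0.30).

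Among low WT-host tumors, WT_irradiated replicate 16 had Cxcl1 at 6.48, Dcbld2 at 9.61 and Cxcl15 at 7.84. WT_sham replicate 64, whose 18S control was also below 11, had Socs3 at 8.77, Pygl at 9.45 and Alas2 at 7.08. The decoy receptor Il1r2 stood at 8.17 in WT_irradiated replicate 12 (nearest 6.32).

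Among high Het-host tumors, Zdhhc3 stood at 8.68 in Het_irradiated replicate 49 and Cxcl15 at 8.10 in Het_irradiated replicate 56 (nearest 4.83). Among low Het-host tumors, Het_sham replicate 52 had the lowest score, 5.49 (nearest 6.71), with Pilrb1 at 5.87, Tgfb1 at 6.24 and Zdhhc3 at 9.34. Het_irradiated replicate 7 had Maff at 7.14, Ppbp at 6.29 and Mmp9 at 11.25 (nearest 7.15).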

How the results depend on the processing

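No paired analysis was possible because the title numbers do not recur across groups. Against 33 genes called, the count was 27 to 46 under filters, all probe sets, quantile normalization, other eBayes settings, array weights, or 18S, 3' minus 5', epithelial, macrophage or squamous covariates (46 with the macrophage covariate, with all 33 among them, and 28 with the 3' minus 5' covariate, 26 of them shared). The count was 13 with host and irradiation as a block, 15 with Csf3r and Cxcr2 alone as the score, 16 with the upper 16 WT and 12 Het tumors against the others (the wider groups) and 516 as a slope over all 56 tumors. Under alternatives chosen after seeing the data it was 11 in irradiated hosts only, 9 without the 4 arrays with low 18S, 14 with the endothelial and 21 with the fibroblast covariate. Leaving out 1 tumor gave 18 (without Het_irradiated replicate 4) to 52 (without WT_sham replicate 17). Within Het hosts, 9 genes became 2 under a stricter filter, 19 with array weights, 4 with irradiation in the block, 21 with the macrophage covariate, 2 with the wider groups and 0 with the score of Csf3r and Cxcr2, with Het arrays alone or in irradiated hosts only. With 1 tumor left out they were 4 (without Het_irradiated replicate 56) to 14 (without WT_irradiated replicate 57). Within WT hosts, 0 became 2 with the wider groups, and 0 to 2 with 1 tumor left out (2 without Het_irradiated replicate 56). The host difference and the slope in the other 28 tumors gave 0 genes in every limma fit run (197 and 528 at an unadjusted p under 0.05). The share of irradiated hosts differed by 14.3 percentage points, by -3.57 with the wider groups and by 42.9 with Csf3r and Cxcr2 (Fisher's exact p = 0.0329). The WT-host score difference of 0.02 was -0.16 with S100a8 and S100a9 alone, and -0.11 to 0.12 with 1 tumor left out, its sign changing in 9 of 32. The Het-host difference of 0.99 was 0.69 with Csf3r and Cxcr2 (exact permutation p = 0.0424) and 0.61 (without Het_sham replicate 52) to 1.21 with 1 tumor left out. The 18S difference was 0.0054 to 0.35 and the 3' minus 5' difference 0.0079 to 0.074 with 1 tumor left out. The causes were not tested. None of the 33 genes called, and none of the further named genes that were refitted, changed sign in these fits. Other named genes, among them Fcgr4, Icam1, Tnfaip3 and F10, were not followed across the fits. Dim genes such as Cxcr2 limit what the arrays can show.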
